A study of Homo sapiens with 6 samples.

Results

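The amino acid transporters described here were 10 solute carrier genes of the plasma membrane, SLC7A11, SLC3A2, SLC7A5, SLC7A1, SLC1A4, SLC1A5, SLC38A1, SLC38A2, SLC43A1 and SLC6A9. They were taken by name from the table of expression values, which lists 57773 genes by Ensembl identifier, and all 10 were found. RNA-seq was performed in H460, a human large cell lung carcinoma line, after transfection with a non-targeting siRNA (siNT, 3 libraries) or with siHKlincR1_2 (siHKlincR1, 3 libraries), an siRNA against the long intergenic noncoding RNA *HKlincR1*. Both siRNAs were used at 50 nM for 48 hours, so every library comes from transfected cells of this 1 line, and the knockdown rests on 1 siRNA. The values are RPKM (reads scaled to library size and to the length of the gene model), which allows levels of different genes to be set side by side. Library totals ranged from 24980280 to 30521000 reads.

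Solute carriers of this kind move amino acids across the cell surface, either down their own gradients, coupled to sodium, or by exchanging one amino acid for another. Proliferating tumour cells depend on them for leucine, glutamine, serine, glycine, arginine and cystine. Shortage of amino acids and stress in the endoplasmic reticulum raise translation of the transcription factor ATF4, which is known to induce several of these transporters together with enzymes that make asparagine and serine, while the factor NRF2 is a further known activator of the cystine transporter SLC7A11.

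The sequences shown here are the siRNA and stretches of promoter that carry a motif of the kind bound by ATF4 with its C/EBP partners. The siRNA is shown as its sense strand and its guide strand, 5′ to 3′, with the seed (bases 2 to 8 of the guide) and the bases it pairs with in capitals.
siHKlincR1_2 sense strand: gaaguauacucGUGUGCUu
siHKlincR1_2 guide strand: aAGCACACgaguauacuuc
The 7-base site that pairs with this seed was in the 3′ UTR of 0 of the 10 transporters. Among 10765 expressed genes whose canonical transcript has a 3′ UTR of at least 30 nt (GENCODE v44 on GRCh37), 1513 (14.1%) held this site. The transporters' 3′ UTRs ranged from 167 nt for SLC3A2 to 7859 nt for SLC7A11.

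RefSeq promoter windows of the GRCh38.p14 assembly, which run from 250 bases before to 50 bases after a transcription start, were available for 9 of the 10 genes, with 16 windows in all. The 8-base motif TGATGNAA was searched on both strands as a sequence of the kind found in C/EBP-ATF response elements. It was present for 5 of the 9 transporters, in 5 of their 16 windows, against 1217 (4.46%) of the 27305 genes and 1270 (3.62%) of the 35116 windows in the table. Of the amino acid response genes, a list described below, 14 had a window and 4 carried the motif. SLC7A5, SLC38A2, SLC43A1 and SLC6A9 had no match in their windows. The 5 stretches are shown on the strand of their gene with the motif in capitals, and for SLC1A4 and SLC3A2 the capitals are its reverse complement.
SLC1A4, chr2:64989362-64989429, plus strand: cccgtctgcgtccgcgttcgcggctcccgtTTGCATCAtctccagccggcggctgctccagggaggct
SLC3A2, chr11:62881706-62881748, plus strand: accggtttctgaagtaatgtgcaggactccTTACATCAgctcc
SLC38A1, chr12:46266483-46266550, minus strand: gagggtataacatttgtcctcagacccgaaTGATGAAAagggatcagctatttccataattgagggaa
SLC7A1, chr13:29595644-29595711, minus strand: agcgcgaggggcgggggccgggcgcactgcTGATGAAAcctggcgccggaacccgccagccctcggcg
SLC1A5, chr19:46784874-46784941, minus strand: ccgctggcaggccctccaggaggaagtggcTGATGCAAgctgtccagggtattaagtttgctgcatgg
Positions are relative to the first transcribed base of the matching window, counted as 0. The motif began at -7 for SLC1A4, 37 for SLC3A2, -4 for SLC38A1, 7 for SLC7A1 and -97 for SLC1A5. SLC3A2 and SLC1A5 had 3 windows each, SLC1A4 and SLC38A1 had 2 each and SLC7A1 had 1. The motif TGACNNNGC, which contains the core of the antioxidant response element bound by NRF2, was found on either strand for 4 of the 9 transporters (SLC3A2, SLC7A5, SLC7A1 and SLC1A5). It was present for 16.1% of all genes with a window and for 3 of the 14 amino acid response genes with a window. These matches are descriptions of sequence only, and no binding was measured.

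*HKlincR1* itself (ENSG00000170846) was present at 3.62, 3.47 and 3.83 RPKM in the siNT libraries and at 0.563, 0.628 and 0.390 RPKM in the siHKlincR1 libraries. Its level was lower in every siHKlincR1 library, with a log2 difference of -2.59 ± 0.17 (SE, n = 3 per group; limma with Benjamini-Hochberg adjustment, adjusted p = 0.00245). The epithelial keratin genes KRT8, KRT18 and KRT19 were at 28.1 to 88.5 RPKM in all libraries, whereas CDH1 and the lung lineage genes NKX2-1 and SFTPB were at or near 0. Markers of leukocytes and endothelium stayed at or below 0.174 RPKM. Of the fibroblast genes, COL1A1 (0.419 to 1.23 RPKM) and PDGFRB (0.544 to 0.946 RPKM) were detected at a low level while COL1A2 and DCN were near 0. The libraries were made from bulk RNA, in which a change in the share of some cells and a change in transcript per cell cannot be told apart.

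With siNT, the transcript levels of the 10 transporters spanned from 1.15 to 125 RPKM. SLC7A5 was the most abundant at 125 ± 19.98 RPKM (mean ± SD, n = 3 siNT libraries), and SLC38A2 followed at 103 ± 21.5 RPKM, a pair whose libraries overlapped. Both lay above the 97th percentile of the 15451 tested genes, those with a mean of at least 0.5 RPKM. SLC1A5 (73.4 ± 4.70 RPKM), SLC7A11 (60.1 ± 13.1), SLC38A1 (56.4 ± 3.45) and SLC3A2 (48.6 ± 7.61) formed a middle group in which each overlapped with its neighbour in the order. SLC7A1 (26.6 ± 5.61 RPKM), SLC1A4 (6.83 ± 2.02), SLC6A9 (2.88 ± 0.884) and SLC43A1 (1.15 ± 0.469) were each separated from the gene above them. SLC43A1 stood at the 16.1th percentile of tested genes.

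After the knockdown, 9 of the 10 transporters had a fitted difference above 0, and SLC43A1, SLC6A9 and SLC1A4 had the largest, between 1.58-fold and 2.06-fold. SLC7A1 was 1.39-fold and SLC7A5 1.24-fold higher, while the means of SLC7A11 and SLC3A2 differed by -3.88% and 3.68%. None passed the test when the libraries were treated as unpaired. A call required a limma adjusted p under 0.05 on log2(RPKM + 0.1) together with a fold above 1.5, and 0 of 10 transporters met it, against 56 of 15451 genes in either direction (0.362%), 1 higher (0.00647%) and 55 lower (0.356%). With limma-voom on the whole reads recovered from the values the unpaired count was also 0 of 10. At an unadjusted p under 0.05, 4 of 10 were higher (SLC7A1, SLC1A4, SLC1A5 and SLC43A1) and 0 lower in the unpaired limma fit, against 7.04% and 9.19% of all tested genes.

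When the replicate number was entered as a block, so that each siHKlincR1 library was compared with the siNT library of the same number, 3 of 10 transporters were called higher (SLC1A4, SLC43A1 and SLC6A9) and 0 lower. Whether libraries of the same number were prepared together is not given in the sources used here. Among all tested genes this blocked fit called 204 in either direction (1.32%), 79 of them higher (0.511%) and 125 lower (0.809%). On the adjusted p alone, SLC7A5 and SLC7A1 were added, giving 5 of 10 higher and 0 lower, where 1.2% of all tested genes were higher, 1.72% lower and 2.93% either (0.453% in the unpaired fit). All 3 siHKlincR1 libraries were above all siNT libraries for SLC1A4, SLC1A5 and SLC38A1, and below them for 0 transporters, against 10.1% and 11.9% of tested genes. In the same-numbered pairs, 7 of 10 were higher with siHKlincR1 in every pair and 0 were lower in every pair, against 24% and 25.2%. The median log2 difference of the 10 was 0.31, and that of all tested genes was 0.0011.

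**Figure D1:**
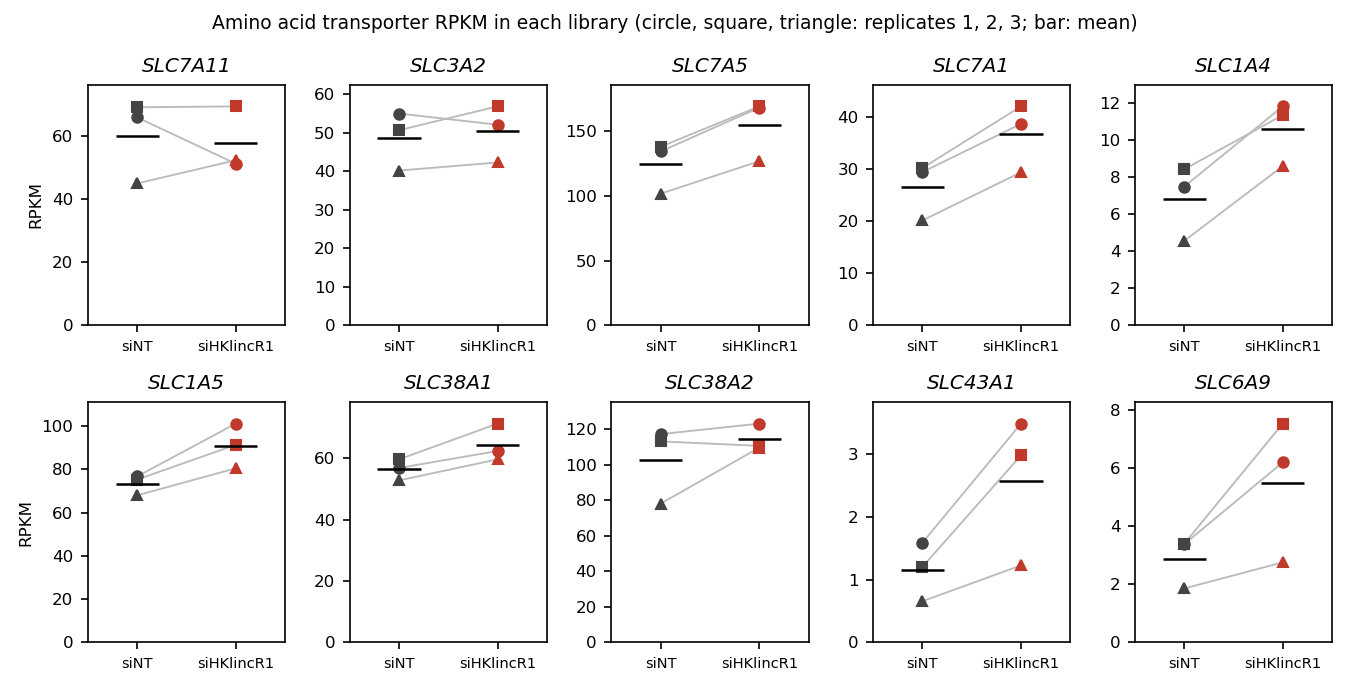
RPKM of each of the 10 amino acid transporters in the 3 siNT (grey) and 3 siHKlincR1 (red) libraries, each panel with its own axis from 0. Circles, squares and triangles are replicates 1, 2 and 3, grey lines join libraries of the same number and black bars are group means; for 7 of the 10 genes all 3 lines rise, and the triangles lie low in almost every panel.

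The third library of each group stood apart for these genes. All 10 transporters were lower in the third library than in the mean of the first and second in both groups, which was the case for 33.8% of all tested genes. It was the lowest library of its group for 10 of 10 transporters with siNT and for 9 of 10 with siHKlincR1. Among all 15451 tested genes it was the lowest for 6329 with siNT and for 6289 with siHKlincR1. The median difference of the third library from the others was -0.56 with siNT and -0.39 with siHKlincR1 on the log2 scale, where the medians of all tested genes were -0.0065 and -0.0019. With siNT this difference was larger in size than the difference between the groups for 6 of the 10 genes. What set these libraries apart is not given in the sources used here, and its part in the results was not tested.

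**Figure D2:**
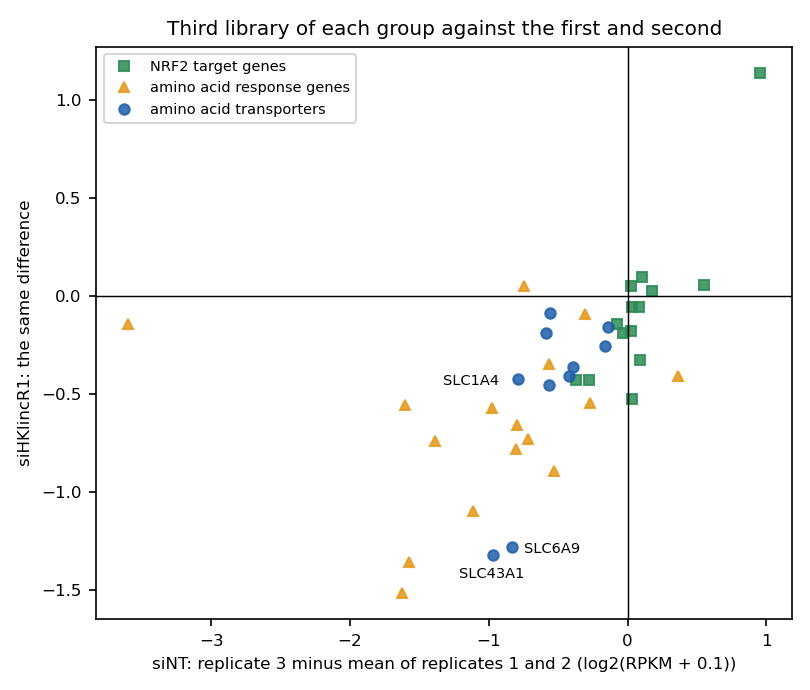
Log2(RPKM + 0.1) of replicate 3 minus the mean of replicates 1 and 2, in siNT (horizontal axis) and in siHKlincR1 (vertical axis), for the transporters (blue circles), amino acid response genes (orange triangles) and NRF2 target genes (green squares). All 10 transporters and 14 of the 16 response genes lie below 0 on both axes, against 4 of the 14 NRF2 target genes.

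The SLC3A2 product (CD98 heavy chain) is the glycoprotein partner that carries the light chains SLC7A5 and SLC7A11 to the cell surface. SLC3A2 (ENSG00000168003, chr11:62623476-62656352, plus strand, GRCh37) had 55.0, 50.6 and 40.2 RPKM with siNT and 52.0, 56.8 and 42.2 RPKM with siHKlincR1. The groups overlapped, and the log2 difference was 0.05 ± 0.15 (SE; limma adjusted p = 0.875).

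SLC7A5, known as LAT1, exchanges glutamine for leucine and other large neutral amino acids. SLC7A5 (ENSG00000103257, chr16:87863629-87903113, minus strand) had 134, 138 and 102 RPKM with siNT, and 168, 169 and 127 RPKM with siHKlincR1. The third siHKlincR1 library lay below the first and second siNT libraries, so the groups overlapped. Within each same-numbered pair, however, siHKlincR1 was higher by nearly the same ratio, at 1.25-fold, 1.23-fold and 1.25-fold. The log2 difference of 0.31 had an SE of 0.16 unpaired (limma adjusted p = 0.359) and 0.04 with the block (limma adjusted p = 0.0437), and it was under the 1.5-fold limit for a call. The pseudogene SLC7A5P1, which is similar in sequence, averaged 1.55 RPKM with siNT and 1.95 RPKM with siHKlincR1, and how the counting shared reads between the copies is not known.

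The light chain SLC7A11, known as xCT, imports cystine in exchange for glutamate and so feeds glutathione synthesis. SLC7A11 (ENSG00000151012, chr4:139085251-139163503, minus strand) had 66.0, 69.2 and 45.0 RPKM with siNT and 51.3, 69.5 and 52.4 RPKM with siHKlincR1. Its pairs went in different directions, with the first lower (0.778-fold), the second level (1.00-fold) and the third higher (1.16-fold). The log2 difference was -0.05 ± 0.19 (SE; limma adjusted p = 0.917, 95% interval -0.49 to 0.40), which leaves room for changes of either sign.

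Because the light chains need the heavy chain, the heavy chain's level was also set against the sum of SLC7A5 and SLC7A11. The ratio of RPKM values was 0.274, 0.244 and 0.274 with siNT and 0.237, 0.238 and 0.236 with siHKlincR1. All siHKlincR1 libraries were below all siNT libraries, and the spread within the knockdown group was small (0.264 ± 0.0171 against 0.237 ± 0.00113; mean ± SD, n = 3 each). The exact two-sided permutation test gave p = 0.1, the smallest that 3 libraries against 3 allow. The summed level of all 10 transporters was 548, 549 and 413 RPKM with siNT and 618, 633 and 513 RPKM with siHKlincR1, with overlapping groups (503 ± 78.3 against 588 ± 65.3; exact two-sided permutation test over unpaired libraries, p = 0.3). In the same-numbered pairs the sum was higher with siHKlincR1 in 3 of 3 and the ratio lower in 3 of 3, for which the exact two-sided sign-flip permutation test gave p = 0.25 each, the smallest that 3 pairs allow. The 10 genes were chosen with earlier results of these data known. These p-values are therefore descriptions and cannot serve as a test of the list.

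**Figure D3:**
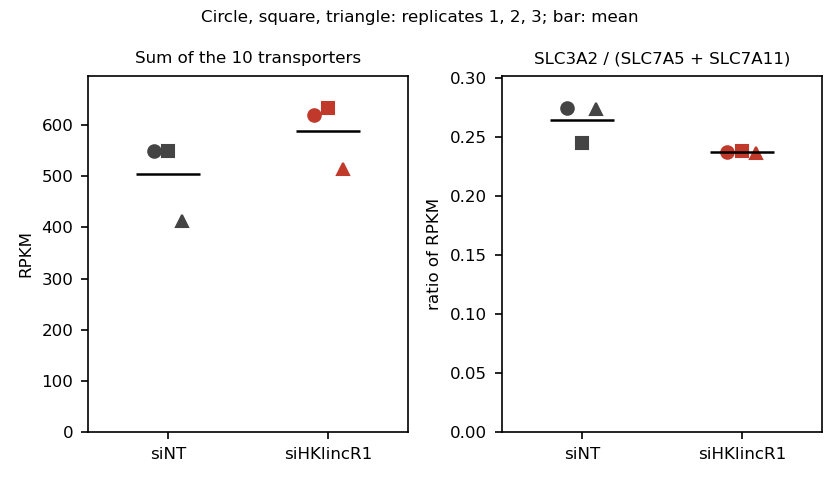
Left, the summed RPKM of the 10 transporters in each library; right, the RPKM of SLC3A2 divided by that of SLC7A5 plus SLC7A11. Points are libraries (circle, square and triangle for replicates 1, 2 and 3) and bars are means; the sums overlap between the groups, whereas the 3 siHKlincR1 ratios of 0.236 to 0.238 lie below the lowest siNT ratio of 0.244.

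SLC7A1 is a carrier of arginine and lysine that most dividing cells express. SLC7A1 (ENSG00000139514, chr13:30083551-30169825, minus strand) had 29.5, 30.3 and 20.2 RPKM with siNT and 38.7, 42.1 and 29.4 RPKM with siHKlincR1. Only the third siHKlincR1 library fell within the range of the siNT group. Each pair was higher with siHKlincR1, by 1.31-fold, 1.39-fold and 1.46-fold, and the log2 difference was 0.47 (SE 0.19, limma adjusted p = 0.301 unpaired; SE 0.05, limma adjusted p = 0.0296 with the block). This was the lowest blocked adjusted p among the 10 genes, though the fold stayed under 1.5.

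SLC1A4 and SLC1A5, known as ASCT1 and ASCT2, are related sodium-dependent exchangers of small neutral amino acids such as serine and alanine, and SLC1A5 is a major route for glutamine. SLC1A4 (ENSG00000115902, chr2:65215611-65250999, plus strand) had 7.49, 8.43 and 4.56 RPKM with siNT and 11.8, 11.4 and 8.61 RPKM with siHKlincR1. Every siHKlincR1 library was above every siNT library, although the third siHKlincR1 library exceeded the second siNT library only narrowly. The log2 difference was 0.66 (SE 0.24, limma adjusted p = 0.265 unpaired; SE 0.10, limma adjusted p = 0.0471 with the block), equal to 1.58-fold. This gene has 2 promoter windows, and the motif TGATGNAA shown above overlaps the annotated start of the window that holds it.

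SLC1A5 (ENSG00000105281, chr19:47278140-47291851, minus strand) had 76.8, 75.4 and 68.1 RPKM with siNT and 101, 91.4 and 80.5 RPKM with siHKlincR1. These groups were also separate, and SLC1A5 showed one of the smallest spreads within siNT. The difference was 1.24-fold, with a limma adjusted p of 0.236 unpaired and 0.0525 with the block.

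SLC38A1 and SLC38A2, known as SNAT1 and SNAT2, take up glutamine and alanine together with sodium. SLC38A1 (ENSG00000111371, chr12:46576846-46663800, minus strand) had 56.8, 59.6 and 52.8 RPKM with siNT and 62.4, 71.3 and 59.6 RPKM with siHKlincR1. Its groups touched without overlapping, the third siHKlincR1 library being almost equal to the second siNT library. The difference of 1.14-fold did not pass either fit (limma adjusted p = 0.333 unpaired and 0.0943 blocked).

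SLC38A2 (ENSG00000134294, chr12:46751971-46766556, minus strand) lies next to SLC38A1 on chromosome 12 and is known to be induced when amino acids are scarce. It had 117, 113 and 78.0 RPKM with siNT and 123, 110 and 109 RPKM with siHKlincR1. Only the third pair differed by more than a few percent (1.40-fold, against 1.05-fold and 0.977-fold), and here the low value was the third siNT library. Its log2 difference was 0.18 ± 0.16 (SE; limma adjusted p = 0.584 unpaired and 0.358 blocked), and without the third siNT library it was -0.01.

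SLC43A1, known as LAT3, carries leucine and other large neutral amino acids without sodium and without a heavy chain. SLC43A1 (ENSG00000149150, chr11:57252007-57283253, minus strand) had 1.59, 1.21 and 0.657 RPKM with siNT, from 156, 130 and 58 reads. With siHKlincR1 it had 3.49, 2.98 and 1.23 RPKM, from 351, 305 and 130 reads. The first and second siHKlincR1 libraries were above all siNT libraries, and the third lay within their range. In each pair the siHKlincR1 library was higher, by 2.19-fold, 2.48-fold and 1.87-fold. The log2 difference of 1.05, the largest of the 10, had an SE of 0.43 unpaired (limma adjusted p = 0.303) and 0.13 with the block (limma adjusted p = 0.0365). It was also the least abundant of the 10, so its relative counting error is the largest.

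SLC6A9, known as GlyT1, is a sodium- and chloride-coupled glycine transporter. SLC6A9 (ENSG00000196517, chr1:44457172-44497139, minus strand) had 3.38, 3.39 and 1.85 RPKM with siNT and 6.19, 7.53 and 2.75 RPKM with siHKlincR1. As for SLC43A1, the third siHKlincR1 library fell into the siNT range and the other two were clearly above it. The pairs were 1.83-fold, 2.22-fold and 1.48-fold higher, and the log2 difference was 0.84 (SE 0.39, limma adjusted p = 0.337 unpaired; SE 0.13, limma adjusted p = 0.0447 with the block). The opposite-strand gene CCDC24 overlaps SLC6A9 over 5029 nt, and it averaged 0.735 RPKM with siNT and 0.4996 RPKM with siHKlincR1.

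**Figure D4:**
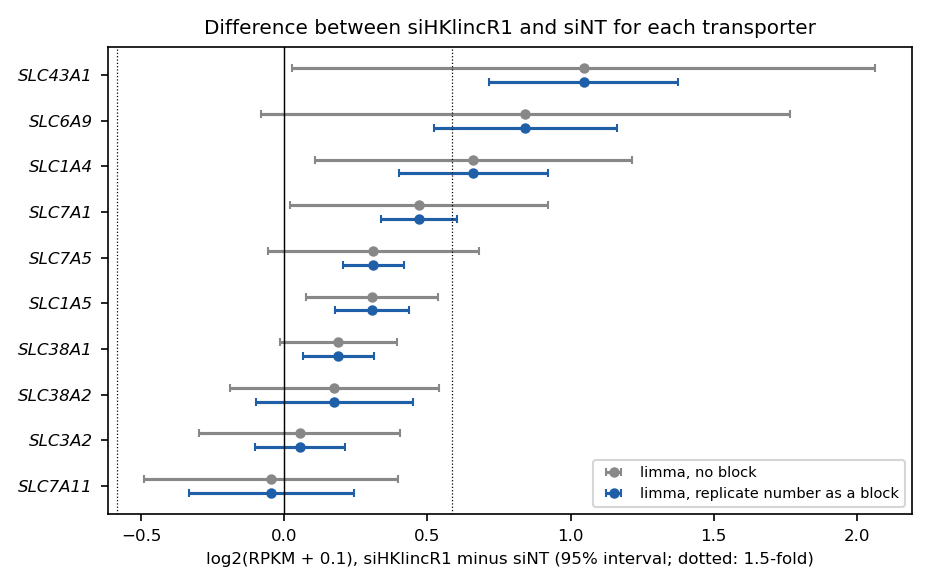
Fitted difference between siHKlincR1 and siNT in log2(RPKM + 0.1) for each transporter, with 95% intervals from limma without a block (grey) and blocked by replicate number (blue); dotted lines mark a 1.5-fold difference. The blocked intervals are narrower for all 10 genes. The estimates of SLC43A1, SLC6A9 and SLC1A4 lie beyond the dotted line, but of their intervals only the blocked interval of SLC43A1 lies wholly beyond it.

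The calls depended on which pairs of libraries were used. With the block, 0 transporters were called when the first library of each group was left out (129 genes in all) and 0 when the second was (25 genes in all). These fits had 4 libraries. At an unadjusted limma p under 0.05 they had 6 and 7 transporters higher, where 2274 of 15413 and 2856 of 15437 tested genes passed in either direction. Without the third library of each group the blocked fit called SLC43A1 and SLC6A9 (189 genes in all), and so did the unpaired fit (440 genes in all). Removing the third siHKlincR1 library alone had the same outcome in the unpaired fit, with SLC43A1 at a log2 difference of 1.49 and SLC6A9 at 1.27, while 520 genes were called. Without the third siNT library the log2 differences were smaller, at 0.72 for SLC43A1, 0.56 for SLC6A9, 0.40 for SLC1A4, 0.28 for SLC7A1 and 0.17 for SLC7A5. Without the second siHKlincR1 library SLC6A9 was also at 0.56 and SLC38A1 at 0.11. Apart from the fit without the third siHKlincR1 library, the 5 unpaired fits that left out 1 library called 0 transporters and between 7 and 18 genes.

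The remaining amino acid transporters were examined for comparison, grouped by where they act. Of 22 other plasma membrane transporters in the table, 7 were expressed at a level that could be tested, and their median log2 difference was 0.02. Fitted differences were above 0 for 4 and below 0 for 3, and 0 were called in either limma fit. At an unadjusted p under 0.05 the unpaired fit had 1 higher and 3 lower, against 7.04% and 9.19% of all tested genes. SLC6A15, a carrier of branched-chain amino acids and proline, went from 5.08 ± 0.0630 to 7.03 ± 0.693 RPKM (limma adjusted p = 0.103 unpaired and 0.0504 blocked). SLC7A2, the close relative of SLC7A1 that also carries cationic amino acids, was the more abundant of that pair with siNT and went from 99.3 ± 14.5 to 79.2 ± 6.29 RPKM (limma adjusted p = 0.280). SLC38A5, a relative of SLC38A1 and SLC38A2, went from 22.2 ± 2.75 to 17.5 ± 2.23 RPKM (limma adjusted p = 0.261 unpaired and 0.0437 blocked, at a log2 difference of -0.35), and SLC7A6 went from 8.71 ± 0.743 to 7.41 ± 0.180 RPKM (limma adjusted p = 0.265).

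Among transporters of the lysosome, 6 of 7 could be tested and 5 of them had a fitted difference below 0, with a median of -0.20. The limma fits made 0 calls. At an unadjusted p under 0.05 the unpaired fit had 2 lower, against 9.19% of all tested genes. SLC36A1, a proton-coupled carrier of small amino acids, had the largest, from 3.04 ± 0.376 to 2.22 ± 0.180 RPKM (limma adjusted p = 0.199 unpaired and 0.0647 blocked). The other named members SLC36A4, SLC66A1 and CTNS, the cystine exporter of the lysosome, had log2 differences of -0.28, -0.21 and -0.19. Mitochondrial amino acid carriers showed a median of -0.16, with 6 of 9 tested genes below 0. Both limma fits made 0 calls, while voom on the reads with the block called SLC25A29 lower. At an unadjusted p under 0.05 the unpaired limma fit had 4 lower, against 9.19% of all tested genes. SLC25A22, a glutamate carrier, went from 9.78 ± 1.05 to 7.08 ± 0.516 RPKM, a log2 difference of -0.46 (limma adjusted p = 0.136 unpaired and 0.0397 blocked). SLC25A29, a carrier of basic amino acids, had a log2 difference of -0.62 at 1.94 RPKM with siNT (limma adjusted p = 0.185), SFXN3 one of -0.28 and SLC25A12, an aspartate-glutamate carrier, one of -0.19.

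The list of amino acid response genes, which holds ATF4, its partners and genes known to be induced by it, was set beside the 10 transporters because several of these transporters are counted among the targets of ATF4. All 16 were tested and all 16 had a fitted difference above 0, with a median of 0.66. Unpaired limma called 0. At an unadjusted p under 0.05 it had 7 higher and 0 lower, against 7.04% and 9.19% of all tested genes. With the block 6 were called higher, against 0.511% of all tested genes. They were ASNS, the asparagine synthetase (33.8 ± 16.7 to 81.5 ± 36.7 RPKM, limma adjusted p = 0.0124 with the block), DDIT3, the stress factor CHOP (20.5 ± 7.82 to 40.0 ± 15.5), CEBPG, a partner of ATF4 (15.1 ± 3.95 to 25.3 ± 6.93), the pseudokinase TRIB3 (45.1 ± 13.1 to 70.5 ± 19.9), and the serine synthesis enzymes PSAT1 (151 ± 43.2 to 238 ± 58.8) and PHGDH (24.9 ± 5.00 to 42.9 ± 13.8). The remaining 10 were not called by blocked limma, while voom on the reads with the block called 8 of the 16, adding SESN2 and NUPR1 to these 6. Leaving out the first, the second or the third library of each group gave 7, 3 and 7 called genes with the block, where 56 of 15413, 8 of 15437 and 87 of 15505 tested genes were called higher, and ASNS, PSAT1 and DDIT3 were among them each time.

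ATF4 mRNA itself went from 180 ± 21.1 to 205 ± 7.75 RPKM, with no overlap between the groups, and did not pass (log2 difference 0.19, limma adjusted p = 0.358 unpaired and 0.134 blocked). CHAC1, which degrades glutathione, had the largest fitted difference of the list, 1.46, but its siNT libraries were at 26.1, 27.3 and 2.11 RPKM, with the low value in the third siNT library. SESN2, a leucine-binding stress protein, and the stress protein NUPR1 had log2 differences of 1.12 and 1.03 (0.0676 and 0.0592 as blocked limma adjusted p). The third library of each group was low in this list too, with 14 of 16 genes below the mean of the first and second in both groups and medians of -0.80 with siNT and -0.62 with siHKlincR1.

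Of the NRF2 target genes, which share with SLC7A11 a known activator, 14 of 14 were tested and their median log2 difference was 0.07. With the block, 0 were called higher and TXNRD1 was called lower. TXNRD1, the cytosolic thioredoxin reductase, went from 317 ± 45.9 to 205 ± 33.6 RPKM (log2 difference -0.63, limma adjusted p = 0.0138 with the block and 0.167 without). Its 3′ UTR carries 2 sites for the seed of siHKlincR1_2, and 14.1% of expressed genes with a 3′ UTR of at least 30 nt hold such a site. Whether these sites bear on the level of TXNRD1 was not tested. The other large differences were 0.24 for SRXN1, 0.21 for ME1 and -0.17 for HMOX1, all 3 without a call in either limma fit. In both groups, the third library was below the mean of the first and second for 4 of these 14 genes.

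**Figure D5:**
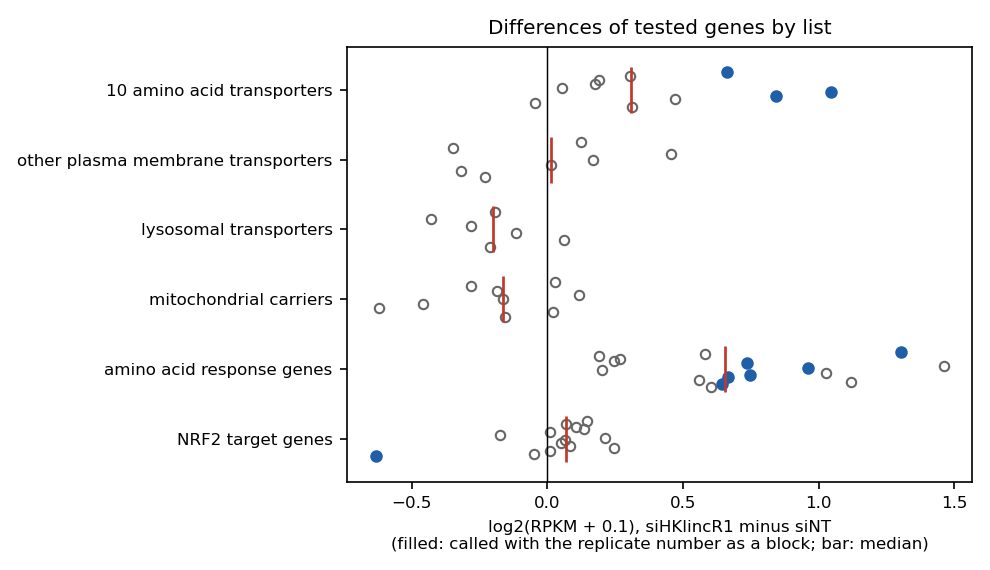
Fitted difference between siHKlincR1 and siNT in log2(RPKM + 0.1) for each tested gene, by list; filled points are genes called in the blocked fit and red bars are medians. The medians are 0.31 for the 10 transporters, 0.02 for other plasma membrane transporters, -0.20 for lysosomal transporters, -0.16 for mitochondrial carriers, 0.66 for amino acid response genes and 0.07 for NRF2 target genes.

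Across the 6 libraries, the mean profile of the 10 transporters on the log2 scale, relative to the siNT mean, was 0.19, 0.17 and -0.36 with siNT and 0.54, 0.60 and 0.07 with siHKlincR1. Each transporter was also set against the mean profile of the other 9, and SLC7A1 and SLC7A5 were closest to it, with root mean square distances of 0.0633 and 0.0922, while SLC43A1 was farthest at 0.631. Among tested genes outside the lists, the 5 nearest to the mean profile of the 10 were HCLS1 (distance 0.0383), CLIC4 (0.0537), GTF2H3 (0.0555), ARG2, the mitochondrial arginase (0.0600), and MTHFD2, a mitochondrial enzyme of folate metabolism (0.0621). The median distance of such genes was 0.404. The log2 differences of the 5 nearest genes were 0.34 to 0.46. In the unpaired limma fit their adjusted p ran from 0.309 to 0.403, and in the blocked fit it was 0.0945 for HCLS1, 0.0437 for CLIC4, 0.0547 for GTF2H3, 0.0687 for ARG2 and 0.0378 for MTHFD2. These 5 were chosen by their values in the same 6 libraries. Their differences and p-values therefore follow from that choice and test nothing further.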

How the data were processed

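The authors prepared strand-specific polyA libraries, called bases with CASAVA 1.8.2 and counted reads on Ensembl v74 gene models of GRCh37 (hg19) with featureCounts of Rsubread. The deposited values are RPKM, 1 column per library. Which aligner was used, and whether counting took the strand into account, is not given in the sources used here. Reads worked back from the deposited RPKM were whole (tolerance 0.01) for 100.0% of nonzero values, with 31287 of 57773 genes above 0 in any library. Symbols came from GENCODE v44 on GRCh37 (55538 identifiers matched). Libraries were grouped by their titles.

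Differences were fitted to log2(RPKM + 0.1) by limma 3.58.1 (R 4.3.3) with a mean-variance trend, for 15451 genes averaging 0.5 RPKM or more, and p-values were adjusted by the Benjamini-Hochberg method. This scale understates the fold of genes with low values. Calls needed an adjusted p under 0.05 plus a fold over 1.5. For single values the two-sided exact permutation test was used, in which 3 against 3 cannot go below p = 0.1. The authors describe the samples as biological triplicates.

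Replicate numbers in the titles gave the pairing, but the sources used here do not say that libraries of the same number were prepared together. The block was adopted from correlations in these same data. Deviations from the group means correlated at 0.142, 0.137 and 0.266 for same-numbered libraries and at -0.209 to 0.113 for the others (across 15451 genes, which are not independent), so a fit blocked by number is given beside the unpaired one.

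The 10 genes, the other lists and the rule for named genes (at most 4 with the largest difference per list, plus ATF4 and those called, and the 5 nearest profiles) were chosen with earlier results of these data known. SLC6A14 and PECAM1 had no match and are not analysed here. Alternatives changed the pseudocount, filter, scaling, variance model, threshold and block, used voom on the reads, and left out each library; fits leaving out a same-numbered pair, voom with the block and the sign-flip test were chosen after seeing the data. The steps were tested on simulated reads drawn without any shift shared by libraries of the same number. That test therefore cannot decide between the unpaired and the blocked fit. Some measured genes are not reported here.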

Additional observations from a re-analysis of the deposited data

How the results depend on the processing

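Over the alternatives run, 189 of 210 log2 differences of single transporters kept their direction and their side of the threshold. A further 12 passed the threshold in addition and 9 reversed. Changing only the threshold or the variance model, or adding the block with all libraries kept, cannot alter a difference. In those fits the direction was fixed beforehand. The changes of sign concerned SLC7A11, SLC3A2 and SLC38A2, whose differences are within the spread between libraries. When each library was left out in turn, SLC7A11 ranged from -0.241 to 0.0689, SLC3A2 from -0.0774 to 0.175 and SLC38A2 from -0.0114 to 0.281 on the log2 scale. With the block and without the first library of each group SLC7A11 was at 0.112, and without the second SLC3A2 was at -0.00278. *HKlincR1* was lower in every fit.

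The count of called genes, 56 in the unpaired fit, was 17 without the mean-variance trend and 89 with voom on the reads, and with each library left out it ran from 7 (the first or second siNT library) to 520 (the third siHKlincR1 library), with 0 to 2 transporters called. Higher genes made up 1.79% of calls, and 26.1% (12 of 46) without the filter on low RPKM. Leaving out the third library of each group gave 440 genes and 2 transporters. The cause of these shifts was not tested. The other pseudocounts, filters and scalings gave 46 to 58 genes and 0 transporters.

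The pairing of libraries by replicate number, entered as a block, gave 204 called genes (38.7% higher) and 3 transporters called higher, and voom with the block gave 424 genes and the same 3 transporters. The block without the first, the second or the third library of each group gave 129, 25 and 189 genes and 0, 0 and 2 transporters. It changed no other call among the 10 transporters. At 58 reads in the third siNT library, SLC43A1 is the value that depth limits most.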

Other observations

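Ratios of related transporters within a library were computed for 6 pairs, chosen after their values had been seen and therefore given without a test. The log2 ratio of SLC7A1 to SLC7A2, both carriers of cationic amino acids, was -1.85, -1.84 and -2.03 with siNT and -0.90, -1.001 and -1.46 with siHKlincR1, so every siHKlincR1 library lay above every siNT library, with a difference of 0.79. The log2 ratio of the light chains SLC7A5 to SLC7A11 was 1.03, 0.99 and 1.17 with siNT and 1.71, 1.28 and 1.27 with siHKlincR1, again without overlap and with a difference of 0.36. For SLC1A4 to SLC1A5 the difference was 0.36, for SLC38A2 to SLC38A5 0.52 and for SLC43A1 to SLC7A5 0.73, each higher in 3 of 3 same-numbered pairs but with overlapping groups. SLC38A1 to SLC38A2 differed by 0.01.

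The third library of each group was not low in all transporter classes. Among the tested transporters of the lysosome, 1 of 6 was below the mean of the first and second in both groups, and among mitochondrial carriers it was 1 of 9, against 10 of 10 plasma membrane transporters described above and 3 of 7 of the other plasma membrane transporters. AKR1B10, an aldo-keto reductase among the NRF2 target genes that is named here after its values were seen, was higher in the third library by 0.96 with siNT and 1.14 with siHKlincR1 on the log2 scale. The part that these libraries have in any of the differences was not tested.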
